A study of Mus musculus with 6 samples.

Results

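The S100 proteins are small calcium-binding proteins with a pair of EF-hand motifs that work mostly as dimers. Calcium exposes a surface on the dimer that grips target proteins such as annexins, myosin and membrane receptors, and S100A10 is the exception, since it holds its active shape without calcium. Several members are abundant in epithelium, whereas S100A8 and S100A9 form calprotectin, a zinc- and manganese-binding complex known from neutrophils and monocytes and also made by inflamed epithelium. Most of the genes lie together on one chromosome, near the genes of epidermal differentiation.

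The 10 genes described here were chosen by name as S100a genes. They are S100a1, S100a4, S100a6, S100a8, S100a9, S100a10, S100a11, S100a13, S100a14 and S100a16. They are 10 of the 24190 genes with a count in the deposited table, and all 10 were among the 14692 tested genes. Their RNA was measured in MTO54 organoids, a line of mouse tumor organoids (MTOs) of the genotype labelled AKP, grown from a primary tumor of an engineered mouse. The labels call the line parental. There were 3 control cultures in complete stem cell medium and 3 cultures in the same medium with Folfiri, 50 μg/μl of 5FU, in the unit printed in the labels, plus SN38 at 100 nM, for 2 days. That length is the labels', and the study's text gives a longer one in one place. The comparison therefore speaks for 1 organoid line, and p values measure the spread between these cultures. The design asks how chemotherapy changed gene expression in tumor cells.

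Gene counts per culture ranged from 22103591 to 30098210. Levels are TMM-normalized CPM, counts scaled to a common library total with TMM factors between libraries, and changes come from edgeR's quasi-likelihood test across all tested genes with p values adjusted by Benjamini-Hochberg and called under 0.05. Of all tested genes, 79.1% passed that threshold, 40.3% higher and 38.8% lower after Folfiri, so passing it was common. The median absolute log2 fold change was 0.73. The median log2 fold change over tested genes was 0.02, or 0.30 when libraries were scaled by their totals alone, and every fold change below moves up with it. In the cultures the epithelial marker list (Epcam, Cdh1, Krt8, Krt18, Krt19, Krt20, Cdx2 and Vil1) summed to between 5731 and 6638 CPM in controls and between 4647 and 4818 CPM after Folfiri, and 0 of its 8 genes were at 0. All 8 were tested, 1 rose, 4 fell and 3 did not pass, beside 40.3% higher and 38.8% lower among all tested genes. Log2 fold changes were -1.53 for Cdx2, -0.94 for Epcam, -0.62 for Krt19, -0.27 for Krt8 and 0.21 for Cdh1. Control replicate 1 stood apart from the other 2 controls, with a chi-square statistic per degree of freedom of 22.4 and 23.7 against them, where they differed from each other at 3.84. Folfiri replicate 3 differed from the other 2 treated cultures at 12.3 and 11.9, and those at 3.55.

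Upstream sequences are shown for 4 members whose RNA moved in different ways, namely the pair S100a8 and S100a9 with the steepest rises of the 10, the abundant S100a11, which rose, and S100a16, which fell. They are RefSeq promoter windows on GRCm38.p6, and 8 of the 10 members had such a window. S100a10 and S100a14 had no entry. Positions count back from the RefSeq start of the gene. Bases that GENCODE places inside the gene are left out, so S100a8 stops at position -94 and S100a11 at -9. Capitals mark letters that match one of the 5 motifs searched on both strands.
S100a8, chr3:90668821-90668977, plus strand: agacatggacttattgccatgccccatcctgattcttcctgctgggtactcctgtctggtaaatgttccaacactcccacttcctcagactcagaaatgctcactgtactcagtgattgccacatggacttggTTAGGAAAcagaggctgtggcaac
S100a9, chr3:90695722-90695971, minus strand: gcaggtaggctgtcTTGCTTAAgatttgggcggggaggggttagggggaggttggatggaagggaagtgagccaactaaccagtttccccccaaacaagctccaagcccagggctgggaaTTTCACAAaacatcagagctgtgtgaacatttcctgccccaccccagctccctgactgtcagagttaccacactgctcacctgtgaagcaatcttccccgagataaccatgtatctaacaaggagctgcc
S100a11, chr3:93520246-93520487, plus strand: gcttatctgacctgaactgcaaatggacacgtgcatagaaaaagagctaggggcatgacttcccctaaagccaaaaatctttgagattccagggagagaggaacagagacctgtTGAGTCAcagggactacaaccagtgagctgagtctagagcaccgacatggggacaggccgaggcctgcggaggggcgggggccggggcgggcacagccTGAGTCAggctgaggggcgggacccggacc
S100a16, chr3:90537004-90537253, plus strand: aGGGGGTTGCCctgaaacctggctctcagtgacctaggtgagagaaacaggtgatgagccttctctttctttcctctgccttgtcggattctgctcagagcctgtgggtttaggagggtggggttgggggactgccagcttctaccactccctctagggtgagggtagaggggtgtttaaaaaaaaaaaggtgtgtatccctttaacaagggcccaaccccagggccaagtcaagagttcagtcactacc

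The motifs were written as TGANTCA for AP-1, TTNNGNAA for C/EBP, GGG, 2 free bases, TT, 1 free base and CC for NF-kB, GGAATG for TEAD and TATAAA for the TATA box. Among 32851 RefSeq promoter windows of 250 bases, 6.75% held the AP-1 letters, 36.8% the C/EBP letters, 4.11% the NF-kB letters, 12.6% the TEAD letters and 12.4% the TATA letters. S100a11 held the AP-1 letters at positions -136 to -130 and again at -38 to -32, and 0.338% of all windows held them 2 or more times. S100a8 held the C/EBP letters at -117 to -110 and the TATA letters at -30 to -25, in the part not printed. S100a9 held the C/EBP letters at -236 to -229 and at -130 to -123, a common match, and S100a16 held the NF-kB letters at -249 to -240. A second RefSeq start of S100a16, whose window is not printed, had the AP-1 letters at -192 to -186. S100a4 held the TATA letters at -31 to -26. In the windows of S100a1, S100a6 and S100a13 none of the 5 motifs was matched. None of these matches overlapped another, and a match is a description of letters, not a measured binding site.

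Of the 10 members, 6 rose after Folfiri, 3 fell and 1 did not pass the threshold. The 9 calls stand beside a background of 79.1% of all tested genes, the 6 rises beside 40.3% and the 3 falls beside 38.8%. The median log2 fold change of the members was 0.42, against 0.02 for tested genes at large. The family therefore did not move one way. S100a9, S100a8, S100a4, S100a6, S100a11 and S100a10 rose, while S100a14, S100a16 and S100a13 fell. In bulk RNA, a change in the number of cells of a type and a change in RNA per cell cannot be told apart.

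**Figure D1:**
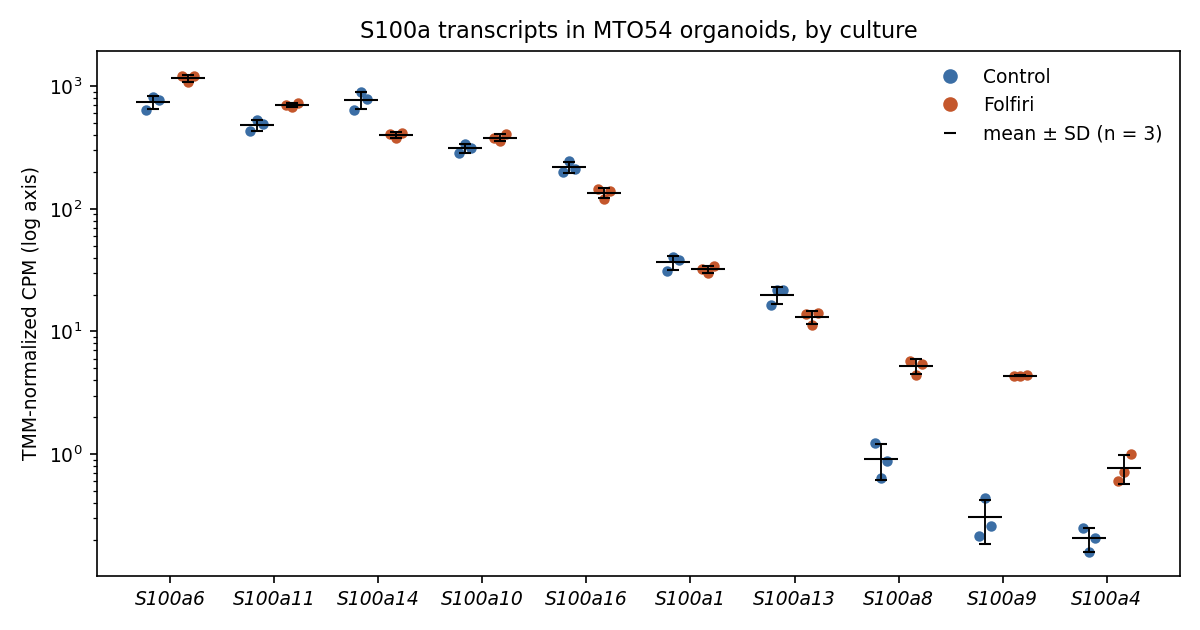
TMM-normalized CPM (log axis) of the 10 S100a genes in each of the 3 control and 3 Folfiri cultures, ordered by mean level, with black bars for the mean ± SD. Groups overlap for S100a1. The share of all tested genes with separate groups was not counted, and 79.1% of them passed the threshold. The low S100a8, S100a9 and S100a4 show the widest separation on the log axis.

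The abundant members that bind annexins and other cytoplasmic targets rose by modest amounts. S100a6 (ENSMUSG00000001025), or calcyclin, is known for binding the ubiquitin ligase adaptor CacyBP. Its levels were 637, 819 and 770.3 CPM in control replicates 1, 2 and 3 and 1209, 1071 and 1206 CPM in Folfiri replicates 1, 2 and 3. All treated cultures lay above all controls, and the log2 fold change was 0.65 (standard error 0.11, adjusted p = 0.000228 from edgeR). S100a11 (ENSMUSG00000027907), the partner of annexin A1, had 429.95, 529 and 493 CPM in controls and 697, 681 and 733 CPM after Folfiri. The groups did not overlap, with a log2 fold change of 0.54 (standard error 0.09, adjusted p = 0.000258 from edgeR). S100a10 (ENSMUSG00000041959), or p11, the partner of annexin A2, had 284, 335 and 314 CPM in controls and 377, 357 and 408 CPM after Folfiri. Folfiri replicate 2 was close to control replicate 2, and the log2 fold change was 0.29 (standard error 0.09, adjusted p = 0.00899 from edgeR). The rise of S100a10 was near the size of the shift between scalings. In the order of all tested genes by fold change, these 3 genes stood at the 71.6th, 68.1st and 60.0th percentile.

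S100a14 and S100a16 went the other way. S100a14 (ENSMUSG00000042306) encodes a member found mainly in epithelia. Its levels were 642, 891 and 789 CPM in controls and 409, 374 and 412 CPM after Folfiri. Every treated culture lay below every control, by a log2 fold change of -0.96 (standard error 0.12, adjusted p = 1.96e-05 from edgeR). S100a16 (ENSMUSG00000074457), a widely expressed member, had 199, 246 and 212 CPM in controls and 144, 120.1 and 138 CPM after Folfiri. Its log2 fold change was -0.70 (standard error 0.10, adjusted p = 5.83e-05 from edgeR), again with separate groups. Control replicate 1 had the lowest level of the 3 controls for S100a6, S100a10, S100a11, S100a14 and S100a16 alike. Without it the falls were larger, at -1.08 for S100a14 and -0.77 for S100a16 on the log2 scale, and the rises smaller, at 0.55 for S100a6, 0.46 for S100a11 and 0.23 for S100a10, all still past the threshold.

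The count of S100a6 divided by that of S100a14 was 0.993, 0.919 and 0.976 for control replicates 1, 2 and 3, against 2.96, 2.86 and 2.93 with Folfiri. This ratio is taken within a library and does not depend on scaling between libraries. The groups did not overlap (two-sided exact permutation, p = 0.1, the smallest that 3 samples against 3 allow). It is 1 of 5 such ratios given here, with a Benjamini-Hochberg adjusted p of 0.167.

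S100a8 and S100a9 changed most on the fold scale and remained minor transcripts. S100a8 (ENSMUSG00000056054) had 34, 16 and 17 counts in controls and 172, 137 and 180 counts after Folfiri. That is 1.22, 0.640 and 0.874 CPM against 5.77, 4.42 and 5.46 CPM, with no overlap between groups. The log2 fold change was 2.49 (standard error 0.23, adjusted p = 2.3e-06 from edgeR), at the 96.1st percentile of all tested genes. S100a9 (ENSMUSG00000056071) had 6, 11 and 5 counts in controls and 129, 135 and 146 counts after Folfiri. Its level went from 0.216, 0.440 and 0.257 CPM to 4.33, 4.36 and 4.43 CPM. The treated cultures were close together and far above the controls, at a log2 fold change of 3.82 (standard error 0.24, adjusted p = 1.58e-07 from edgeR) and the 98.6th percentile. When any 1 of the 6 cultures was dropped, the log2 fold change stayed between 2.27 and 2.80 for S100a8 and between 3.59 and 4.19 for S100a9.

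S100a9 counts divided by S100a8 counts were 0.176, 0.688 and 0.294 in controls and 0.750, 0.985 and 0.811 after Folfiri. The 2 groups did not overlap, though control replicate 2 came close to Folfiri replicate 1 (two-sided exact permutation, p = 0.1, the smallest possible, adjusted p = 0.167 over the 5 ratios). The control ratios rest on 5 to 11 counts of S100a9.

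Per length, the contrast between S100a8, S100a9 and the abundant members was one of scale. Levels of different genes are compared here as CPM per kb of merged exons. In controls S100a11 stood at 947 ± 98.0 CPM per kb (SD, n = 3) and S100a6 at 543 ± 69.1. S100a14 followed at 448 ± 72.7, S100a10 at 256 ± 21.2 and S100a16 at 135 ± 14.9 CPM per kb (SD, n = 3 each). The S100a6 and S100a14 levels overlapped between cultures, from 466 to 599 and from 372 to 516 CPM per kb, but within each control culture S100a6 was the higher. S100a1 came next at 52.7 ± 6.91 CPM per kb and S100a13 at 27.9 ± 4.45, while S100a8, S100a9 and S100a4 stood at 1.32 ± 0.424, 0.583 ± 0.228 and 0.353 ± 0.0789 CPM per kb (SD, n = 3 each). Those of S100a9 and S100a4 overlapped. After Folfiri, S100a11 was at 1377 ± 52.4 CPM per kb, S100a6 at 849.9 ± 57.7, S100a10 at 314 ± 21.0 and S100a14 at 231 ± 12.1, so that S100a10 had passed S100a14 in each treated culture. S100a8 and S100a9, at 7.52 ± 1.02 and 8.37 ± 0.102 CPM per kb of merged exons after Folfiri, overlapped and did not differ beyond their spread. The order depends on the length used. With the longest transcript of each gene in place of merged exons, S100a6 at 948 ± 121 CPM per kb and S100a11 at 947 ± 98.0 overlapped in controls, as did S100a14 at 459.9 ± 74.6 and S100a10 at 454 ± 37.5 (SD, n = 3 each). By that length after Folfiri, S100a6 at 1484 ± 101 was above S100a11 at 1377 ± 52.4 within each culture, though their ranges overlapped. S100a8 at 10.5 ± 1.42 was then above S100a9 at 8.42 ± 0.103 CPM per kb, with separate ranges (SD, n = 3 each). By the level per kb of merged exons, S100a11 ranked between 17 and 59 among the tested genes of a culture, and S100a9 between 5605 and 12693.

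Together, S100a8 and S100a9 made up 0.103%, 0.0661% and 0.0712% of the summed level per kb of the 10 members in controls and 0.559%, 0.530% and 0.534% after Folfiri. The pair thus stayed under 1% of the family level in every culture. The share of S100a14 in the family level was 18.5% in controls and 7.85% after Folfiri, and that of S100a11 was 39.3% and 46.9%. The share of S100a10 was 10.7% in both groups. The summed level of the 10 members was 2106, 2669 and 2462 CPM per kb in controls and 2969, 2776 and 3065 CPM per kb after Folfiri, with separate groups. In CPM without regard to length the sums overlapped, at 2588 ± 324 for controls and 2834.5 ± 159.6 for treated cultures (SD, n = 3 each).

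**Figure D2:**
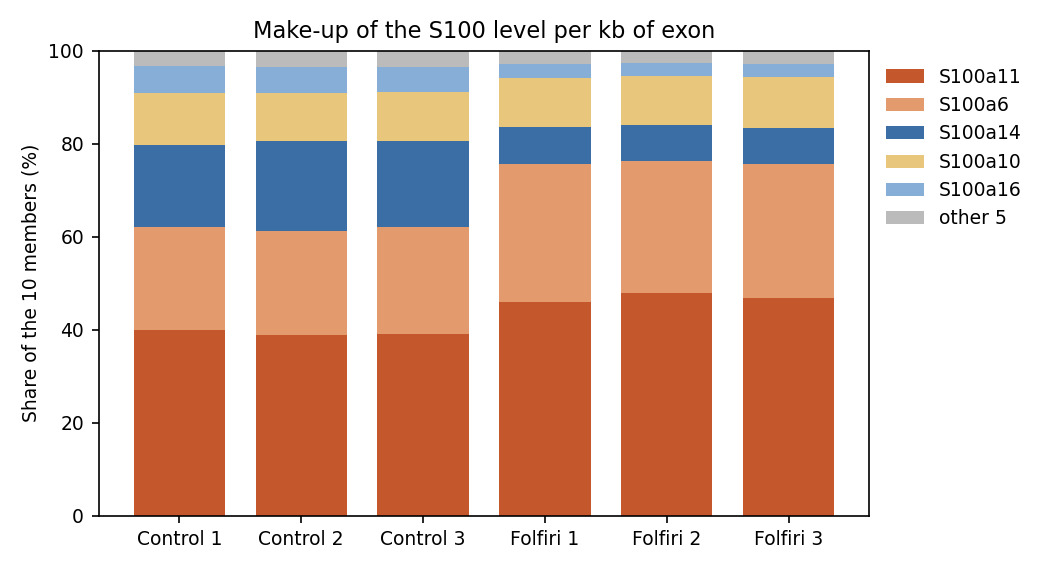
Share (%) of each S100a gene in the summed level per kb of merged exons of the 10 members, as stacked bars for each of the 6 cultures, with S100a1, S100a4, S100a8, S100a9 and S100a13 joined as the other 5. S100a11 and S100a6 take a larger part and S100a14 and S100a16 a smaller part in the 3 Folfiri cultures.

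The other members were low or moderate. S100a13 (ENSMUSG00000042312) takes part in the release of FGF1 and IL-1α, which lack a signal peptide. It had 16.3, 21.7 and 21.9 CPM in controls and 13.9, 11.3 and 14.1 CPM after Folfiri, a log2 fold change of -0.60 (standard error 0.14, adjusted p = 0.00192 from edgeR), and the groups did not overlap. S100a4 (ENSMUSG00000001020), which binds non-muscle myosin and is known from motile and mesenchymal cells, had 7, 4 and 4 counts in controls and 18, 22 and 33 counts after Folfiri. All treated cultures were above the controls, at a log2 fold change of 1.88 (standard error 0.36, adjusted p = 0.000583 from edgeR), but from a level under 1 CPM in both group means. S100a4 shares bases with Gm42674 on the same strand, for which the table lists no count. S100a1 (ENSMUSG00000044080), best known from muscle, had 31.2, 40.4 and 38.2 CPM in controls and 32.3, 29.8 and 34.3 CPM after Folfiri. Control replicate 1 lay among the treated cultures, and the log2 fold change of -0.19 (standard error 0.11, adjusted p = 0.128 from edgeR) did not pass the threshold. Without control replicate 1 the fold change of S100a1 was -0.29 and passed (adjusted p = 0.00349 from edgeR), and with scaling by total counts only it was 0.09.

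The members that fell and those that rose lay in separate stretches. On chromosome 3 of GRCm38, S100a1 to S100a9 lie within 185 kb, from 90511034 to 90695721. S100a13, S100a14 and S100a16 are neighbours in a stretch of 28.7 kb, from 90514435 to 90543151, and all 3 fell. S100a1, which begins 43 bases from S100a13 on the opposite strand, did not pass. The stretch from S100a3 to S100a9, 90560578 to 90695721, starts 17.4 kb further on and holds S100a4, S100a6, S100a8 and S100a9, all of which rose. S100a11 and S100a10 lie together at 93520488 to 93564643 and both rose. This order is a description of 10 genes with no test.

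**Figure D3:**
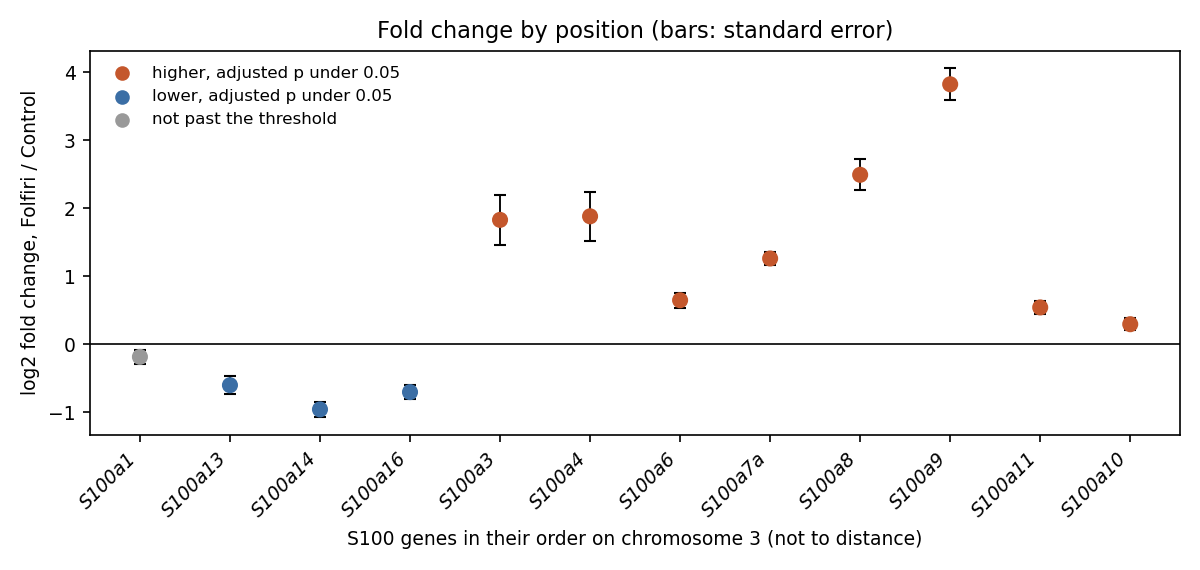
Log2 fold change (Folfiri over Control) of the 12 tested S100 genes of chromosome 3 in their order along the chromosome, with bars for the standard error. S100a13, S100a14 and S100a16 lie side by side below 0, and the 8 genes from S100a3 to S100a10 lie above 0.

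Of 7 further S100 genes looked up, 4 had counts, 3 were tested and 2 rose, beside 40.3% of all tested genes. S100a7a (ENSMUSG00000063767), kin of the human psoriasin genes of inflamed skin, had 16.2, 15.4 and 13.9 CPM in controls and 38.8, 34.4 and 36.1 CPM after Folfiri. The log2 fold change was 1.26 (standard error 0.09, adjusted p = 4.85e-07 from edgeR) and the groups were far apart. S100a3, a member known from hair, had 7, 3 and 9 counts in controls and 31, 31 and 27 counts after Folfiri (log2 fold change 1.83, standard error 0.37, adjusted p = 0.000847 from edgeR). S100a3 overlaps S100a2 and Gm42674 on the same strand, so its counts are uncertain. S100z had 0.216, 0.320 and 0.514 CPM in controls and 0.537, 0.420 and 0.485 CPM after Folfiri, overlapping groups that did not pass the threshold (log2 fold change 0.52, standard error 0.35, adjusted p = 0.201 from edgeR). S100b, a glial and melanocyte marker, had 3, 0 and 0 counts in controls and 18, 8 and 9 counts after Folfiri and was removed by the filter on low counts. With no filter, and in DESeq2's Wald test, S100b was tested and rose, so that 3 of 4 genes passed there. S100a2, which was not in that list, had 6, 2 and 3 counts in controls and 5, 10 and 10 counts after Folfiri and was also removed by the filter.

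Genes within 100 kb of a member went both ways, as tested genes at large did. Of 27 such genes outside the family, 16 had no count and 9 were tested. Of those 9, 4 rose, 4 fell and 1 did not pass, beside 40.3% higher and 38.8% lower among all tested genes. In either direction, 79.1% of all tested genes passed. On the side of S100a1, Chtop, an mRNA export factor, rose by a log2 fold change of 0.47 and Ilf2, a double-stranded RNA-binding protein, by 0.30. Ints3, a subunit of the Integrator complex, fell by 0.94 on the log2 scale, and Snapin, a vesicle transport protein, fell by 0.57. Tchh (trichohyalin), a hair follicle protein that carries an S100 domain of its own and lies near S100a11, went from between 10.5 and 11.6 CPM to between 29.7 and 33.0 CPM, a log2 fold change of 1.5005 (standard error 0.09, adjusted p = 1.56e-07 from edgeR). The other 3 that passed, Pglyrp4 (higher), Gm5541 and Gm19739 (both lower), had means under 1 CPM and are named after their values were seen. Npr1, the one tested neighbour that did not pass, had a log2 fold change of -0.14.

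Annexins are calcium-dependent membrane-binding proteins, and several of them are the targets of S100 dimers. Of the 12 annexins, 11 were tested, 3 rose, 4 fell and 4 did not pass, beside the 79.1% of all tested genes that passed, and their median log2 fold change was 0.07. Anxa2, whose protein joins S100A10 in a membrane-bound tetramer, had 1612, 1929.8 and 1824 CPM in controls and 879, 814 and 876 CPM after Folfiri. It fell in all treated cultures, by 1.06 on the log2 scale (standard error 0.10, adjusted p = 2.29e-06 from edgeR), while S100a10 rose. The count of S100a10 divided by that of Anxa2 was 0.176, 0.173 and 0.172 in controls and 0.429, 0.439 and 0.466 after Folfiri. The controls were nearly identical and the treated cultures lay far above them (two-sided exact permutation, p = 0.1, the smallest possible, adjusted p = 0.167 over the 5 ratios).

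Anxa1, the inflammation-resolving partner of S100A11, had 1392, 1541 and 1533 CPM in controls and 2069, 1982 and 2082 CPM after Folfiri. It rose with S100a11, at a log2 fold change of 0.46 (standard error 0.09, adjusted p = 0.000709 from edgeR). The ratio of S100a11 to Anxa1 counts was 0.309, 0.343 and 0.321 in controls and 0.337, 0.344 and 0.352 after Folfiri, overlapping ranges with a difference of 0.09 on the log2 scale (exact two-sided permutation test, p = 0.2). Anxa4 changed most among the abundant annexins, from 1549, 1688 and 1676 CPM to 226, 202 and 196 CPM. That is a log2 fold change of -2.98 (standard error 0.10, adjusted p = 3.18e-09 from edgeR). Anxa3 rose by 0.40, and Anxa11, a known partner of S100A6, fell by 0.35 and Anxa7 fell by 0.30 on the log2 scale. With scaling by total counts only, Anxa11 and Anxa7 no longer passed and 6 annexins rose in place of 3. The third riser, Anxa10, had 0, 2 and 0 counts in controls and 20, 24 and 21 counts after Folfiri and is named after its values were seen.

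Of 14 genes for other S100 partners and receptors, all were tested, 9 rose, 4 fell and 1, Dlc1, did not pass, beside 40.3% higher and 38.8% lower among all tested genes. Among intracellular partners, Cacybp, the S100A6 target, had 71.1, 59.6 and 60.7 CPM in controls and 104, 109.5 and 107.8 CPM after Folfiri, a log2 fold change of 0.75 (standard error 0.08, adjusted p = 9.95e-06 from edgeR). It rose beside S100a6, and the ratio of S100a6 to Cacybp counts ran from 8.96 to 13.7 in controls and from 9.78 to 11.6 after Folfiri (exact two-sided permutation test, p = 0.7). Ahnak, a giant scaffold held by the S100A10 and annexin A2 complex, had 785, 638 and 633 CPM in controls and 1204, 1094 and 727 CPM after Folfiri. Folfiri replicate 3 lay within the range of the controls, and the log2 fold change of 0.56 (standard error 0.17, adjusted p = 0.0101 from edgeR) lost its call without Folfiri replicate 1 (0.41, adjusted p = 0.0527 from edgeR). Myh9, the myosin heavy chain bound by S100A4, rose by a log2 fold change of 0.34 and is named after its values were seen. Sugt1, a co-chaperone bound by S100A6, fell by 0.23 on the log2 scale and stood at 0.05 with scaling by total counts only. Its call was also lost with upper quartile scaling and without control replicate 2, control replicate 3, Folfiri replicate 1 or Folfiri replicate 2, at -0.17, -0.16, -0.24, -0.21 and -0.21.

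Il1a, whose release involves S100A13, had 1.48, 0.840 and 0.874 CPM in controls and 11.3, 10.8 and 9.04 CPM after Folfiri, a log2 fold change of 3.25 (standard error 0.21, adjusted p = 1.81e-07 from edgeR), while S100a13 fell. Plat, the tissue plasminogen activator that S100A10 binds, had 33.1, 38.4 and 38.98 CPM in controls and 190.1, 194 and 183 CPM after Folfiri, a log2 fold change of 2.36 (standard error 0.08, adjusted p = 4.98e-09 from edgeR). Fgf1, the other cargo of S100A13, rose by 0.88.

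Of the 6 receptor genes, 3 rose and 3 fell, beside 40.3% higher and 38.8% lower among all tested genes. Tlr4, a receptor for S100A8 and S100A9, had 13.2, 7.64 and 6.38 CPM in controls and 15.9, 17.9 and 14.5 CPM after Folfiri. The treated cultures lay just above control replicate 1, and the log2 fold change was 0.81 (standard error 0.22, adjusted p = 0.00578 from edgeR). Ager, which encodes RAGE, had 1.08, 0.840 and 1.03 CPM in controls and 1.37, 1.36 and 1.52 CPM after Folfiri (log2 fold change 0.53, standard error 0.20, adjusted p = 0.0340 from edgeR). The call of Ager was lost in 8 of 13 alternatives, with an adjusted p of up to 0.175 from DESeq2's Wald test. Without control replicate 2, control replicate 3, Folfiri replicate 1, Folfiri replicate 2 or Folfiri replicate 3 its log2 fold change was 0.41, 0.54, 0.55, 0.56 and 0.47, with no call. Bsg (basigin), a transmembrane receptor for S100A9, had 2333.5, 3290.4 and 3237 CPM in controls and 591, 548 and 615 CPM after Folfiri. It fell far below the controls in all treated cultures, with a log2 fold change of -2.34 (standard error 0.14, adjusted p = 1.19e-07 from edgeR). Alcam, an adhesion molecule, fell by 1.39 on the log2 scale and Nptn (neuroplastin), a relative of basigin bound by S100A8, fell by 0.47. Cd36, the scavenger receptor, had 3, 5 and 1 counts in controls and 38, 49 and 58 counts after Folfiri, a log2 fold change of 3.59 (standard error 0.36, adjusted p = 5.4e-06 from edgeR), and is named after its values were seen because its mean was under 1 CPM.

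**Figure D4:**
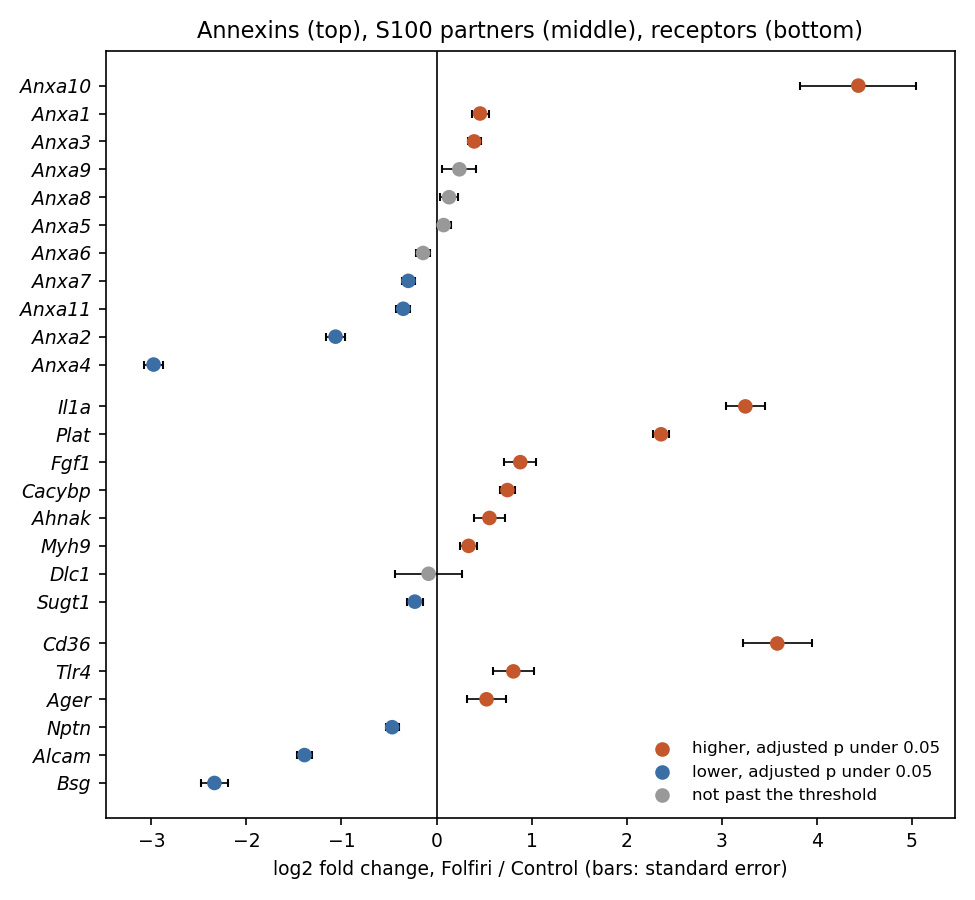
Log2 fold change (Folfiri over Control) of the tested annexins, S100 partners and S100 receptors, with bars for the standard error. Anxa2, Anxa4, Alcam and Bsg lie far below 0 and Il1a, Plat and Cd36 far above, while the value of Anxa10 rests on 2 counts in all controls and depends on the prior count of the fit.

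Since S100a8 and S100a9 are also neutrophil and monocyte genes, markers of other cells were read in the same cultures. Of the 10 neutrophil markers, Ly6g was at between 899 and 1303 CPM in controls and between 486 and 549.5 CPM after Folfiri, lower where S100a8 and S100a9 were higher, and reads shared with its Ly6 paralogs are uncertain. The other 9 together summed to between 0.0800 and 0.257 CPM in controls and between 0.420 and 0.604 CPM after Folfiri. Their sum, though not each marker, was thus higher where S100a8 and S100a9 were higher, at a level under 1 CPM. None of these 9 passed the filter for testing, and only Mpo, Ltf and Itgam had separate groups. Cxcr2 went the other way by its mean, with 5, 1 and 4 counts without Folfiri against 1, 4 and 6 with it. Mpo, Camp, Ngp, Mmp8 and Itgam were at 0 in all controls, and after Folfiri 0 of the 10 were at 0 in all cultures, with Mpo, the granule peroxidase, at 1, 3 and 1 counts.

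Of the 10 macrophage markers 5 were tested and 4 rose, beside 40.3% of all tested genes and 79.1% that passed in either direction. Cd68 had the highest CPM, and the other 9 summed to between 6.72 and 7.63 CPM in controls and between 15.1 and 16.3 CPM after Folfiri. Csf1r was at 0 in controls and at 2, 3 and 3 counts after Folfiri, and Tyrobp was at 0 after Folfiri. The 4 that rose were Cd14, the leukocyte gene Ptprc (log2 fold change 1.39), Adgre1 (1.86) and Fcer1g (2.86), of which Fcer1g had 0, 1 and 4 counts in controls and 19, 18 and 13 counts after Folfiri. They moved with S100a8 and S100a9. Most of the summed level besides Cd68 was Cd14, at 6.70, 5.96 and 6.27 CPM in controls and 12.1, 12.5 and 13.7 CPM after Folfiri, while Cd68 itself did not pass the threshold (20.7, 25.5 and 24.5 CPM against 19.95, 20.5 and 21.1 CPM).

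The 8 fibroblast markers together summed to between 74.6 and 92.9 CPM in controls and between 19.2 and 20.8 CPM after Folfiri, lower where S100a8 and S100a9 were higher. Nearly all of that sum was Vim, which fell by 2.25 on the log2 scale, and Col1a1 fell by 1.47. Of the 4 tested fibroblast markers 2 fell and 2 rose, where 79.1% of all tested genes passed. Pdgfra rose by a log2 fold change of 1.54, and Dcn had 2, 0 and 0 counts in controls and 19, 26 and 20 counts after Folfiri. The 7 markers besides Vim summed to between 1.08 and 1.44 CPM in controls and between 2.03 and 2.45 CPM after Folfiri, with Lum at 0 throughout. The part of the neutrophil, macrophage and fibroblast markers in the rise of S100a8 and S100a9 was not tested.

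Of 10 genes of squamous epithelium, which also makes S100A8 and S100A9, 9 were tested, 3 rose and 3 fell, where 79.1% of all tested genes passed. Their sum was between 94.6 and 109.0 CPM in controls and between 379 and 398 CPM after Folfiri. Nearly all of that difference was Krt4, since the other 9 summed to between 48.3 and 64.2 CPM in controls and between 47.3 and 53.4 CPM after Folfiri. The 3 that rose were Krt4, Krt5 and Krt6a, with log2 fold changes of 2.94, 2.02 and 1.25. The 3 that fell were Krt1, Krt13 and Sprr1a, at -2.72, -1.25 and -0.75. Trp63, the squamous master regulator, was at 0 in all controls and at 7, 3 and 6 counts after Folfiri, and was not tested.

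**Figure D5:**
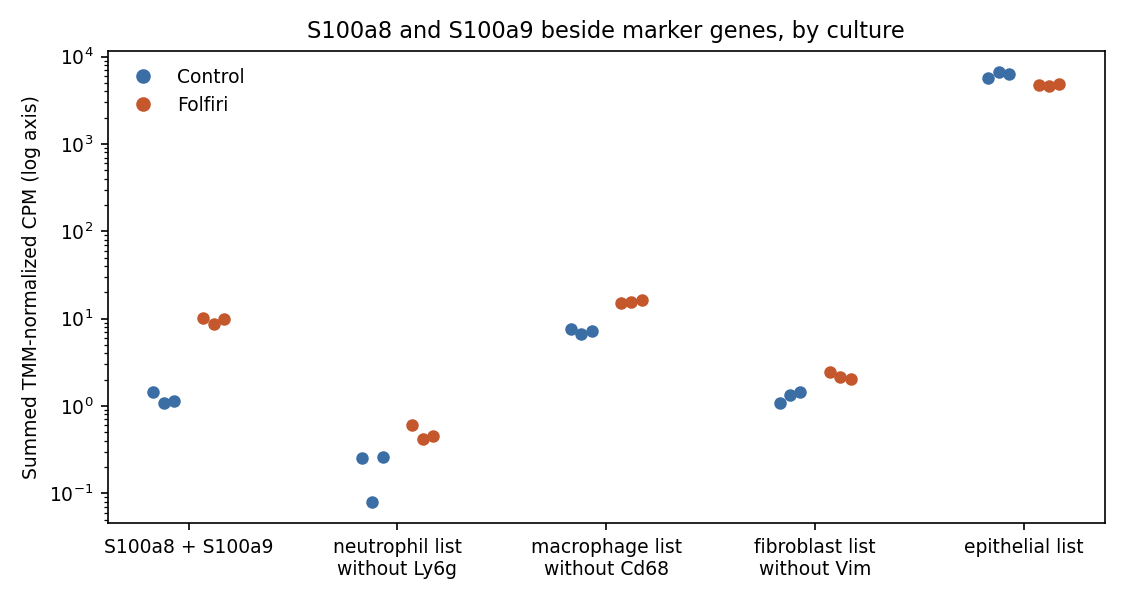
Summed TMM-normalized CPM (log axis) of S100a8 and S100a9 and of marker lists in each of the 3 control and 3 Folfiri cultures. The 9 neutrophil markers besides Ly6g stay under 1 CPM in all cultures. The epithelial list is lower after Folfiri and stays at 4647 CPM or more.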

How the data were processed

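RNA-seq of 6 organoid cultures was deposited as 1 table of raw counts per gene. The authors aligned reads with STAR 2.5.2 to the mouse genome (GRCm38), sorted them with Sambamba and made the deposited counts with Rsubread on a GENCODE annotation. Strand and multi-mapping settings are not given in the sources used here, so overlapping and near-identical genes are uncertain. Groups came from the sample labels. Of 24190 gene IDs, 24168 matched a GENCODE GRCm38 annotation of another release than the authors used, which gave symbols, positions and exon lengths.

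Counts were filtered with filterByExpr (minimum count 10, minimum total 15), scaled by TMM and tested with edgeR 4.0.16 in R 4.3.3 (quasi-likelihood F test), and p values were adjusted over 14692 genes by Benjamini-Hochberg. Scripts were tested on simulated data. Ratios of counts were compared by exact permutation of the 6 cultures. Levels per length are TMM-scaled CPM divided by kb of merged exons. Alternatives were DESeq2 1.42.0 size factors, total counts, upper quartile scaling, no filter, a filter at 1 CPM, the DESeq2 Wald test, a block for the replicate number and 6 fits without one culture each.

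The S100 members, the gene lists and the tests were chosen with earlier results of these data known. All 10 members and the genes with a count in a list of other S100 genes, which left out S100a2, are named. Annexins, partners, receptors and neighbours within 100 kb are named where they passed the threshold, up to 5 per direction by fold change among genes averaging 1 CPM or more, and Anxa1, Anxa2, Ahnak, Cacybp, Ager and Tlr4 in any case. Marker lists are given by their summed level and the genes at 0, and the single markers given with counts or fold changes were named after their values were seen. Depth of 22103591 to 30098210 counts leaves genes under about 10 counts imprecise. The single alleles of the line's genotype are not reported here.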

Additional observations from a re-analysis of the deposited data

How the results depend on the processing

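The count of S100 members that passed was 9 in every fit except 8 with a filter at 1 CPM, which left 9 tested, and 10 without control replicate 1. With that filter the other S100 genes gave 1 call in place of 2 and the neighbours 5 in place of 8, since fewer were tested. With no filter and with the DESeq2 Wald test the other S100 genes gave 3 calls of 4 tested. The difference in the share of S100a8 and S100a9 was 0.461 percentage points and 0.409 with the longest transcript as length. With total counts only, S100a1 stood at 0.0948 and Sugt1 at 0.0516 on the log2 scale, both with changed sign, 75% of the annexin calls were higher in place of 42.9%, and 63.3% of all calls were higher in place of 51.0%. Of 452 alternative fits of 35 named genes, 433 kept direction and side of the threshold, 16 lost the call, 1 gained it and 2 changed sign.

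Replicate numbers did not pair the cultures, with correlations of deviations of 0.03, -0.12 and 0.04 for the same number. With the replicate number as a block, 9 members, 7 annexins, 8 neighbours, 2 other S100 genes and 12 partners and receptors passed, where the last had been 13 and lost Ager, and 11499 of all genes in place of 11623. The alternatives for the other S100 genes, for their count and fold changes alike, were added after the data were seen. Over all alternatives 10630 to 12742 genes passed. S100a4, S100a9 and S100a3 rest on few control counts, which limits the precision of their fold changes.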
